A study of Mus musculus with 6 samples.

Results

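The 6 libraries compared here came from 3 independent differentiations of mouse embryonic stem (ES) cells, numbered 1, 2 and 3. Each number held 1 wild-type (WT) and 1 Scl-/- library, so that all 6 libraries of the series were used. The numbers are the replicate numbers in the labels, and a shared number was taken to mean a shared differentiation. WT cells were the J1 ES line and Scl-/- cells were an ES line in which both copies of Scl (Tal1) were disrupted. The cells were grown as embryoid bodies for 3.5 days, and FLK1-positive cells were isolated with a PE-coupled antibody and anti-PE microbeads on a magnetic column. Each genotype was 1 line, so genotype and line cannot be told apart. The question was which genes moved with the differentiation in both lines. The numbers were therefore compared with genotype as a covariate, and WT was not tested against Scl-/-. Whether sort, RNA extraction, library preparation and sequencing were also grouped by number is not given in the sources used here. Differences between numbers in culture or in any of these steps cannot be told apart.

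As background, ES cells in embryoid bodies pass through an epiblast-like and a primitive streak-like stage before they form mesoderm. Nodal and WNT signalling drive the streak genes, and FLK1 (Kdr), a receptor for vascular endothelial growth factor, marks mesoderm that can give blood, endothelium and heart. With time, nascent mesoderm genes such as Eomes and Mesp1 decline and endothelial genes such as Cdh5 and Tie1 rise.

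Kdr, the gene of the sorted marker, was at 868, 832 and 867 CPM in WT and 724, 777 and 810.4 CPM in Scl-/-, and it was not called as different between numbers (F test, adjusted p = 0.65). Levels are given here and below in the order of differentiations 1, 2 and 3, in CPM, the reads of a gene scaled to the total of its library. RNA measured in bulk cannot tell fewer cells of a type from less RNA per cell. Tal1, the disrupted gene, was at 303, 182 and 306 CPM in WT and 9.35, 5.68 and 5.87 CPM in Scl-/-. All 6 markers fixed for FLK1+ mesoderm were detected, with a summed level of 1394 to 1807 CPM over the libraries. The 5 markers of undifferentiated cells (Pou5f1, Nanog, Zfp42, Esrrb and Fgf5) summed to 85.5, 153 and 111 CPM in WT and 89.1, 231 and 221 CPM in Scl-/-. Sox17 for endoderm, Pax6 for neural cells and Hbb-bh1, Gata1 and Itga2b for maturing blood were analysed, and the other markers fixed for these cells were not analysed here. The summed blood markers reached 16.2 to 43.1 CPM in WT and 2.44 to 3.06 CPM in Scl-/-. Reads on listed genes ranged from 38623641 to 47621120 per library, and 3 reads corresponded to 0.0615 to 0.0784 CPM.

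Over 13991 genes, the differentiation accounted for 46.6% of the sum of squares of log2(CPM + 0.5) and genotype for 44.9%, and 8.49% went with neither. Differentiation was fitted with 2 coefficients and genotype with 1, so these shares do not rank them. All differences below are on the log2(CPM + 0.5) scale, and ± is the standard error of the fit. Folds taken from this scale understate the change of genes at low levels. The F test over the numbers called 2815 genes, 20.1% of those tested, at an adjusted p under 0.05 and a fitted range over 0.48. Each number was then set against the mean of the others with the same limits. Differentiation 1 had 231 genes higher (1.65%) and 187 lower (1.34%), differentiation 2 had 687 higher (4.91%) and 585 lower (4.18%), and differentiation 3 had 523 higher (3.74%) and 1033 lower (7.38%). These 3 comparisons share libraries, so a gene that stands apart in 1 number also enters the means of the others. The p-values measure only the spread that the genotypes did not share within a number, with 1 library of each. The count of the F test was 619 without the WT library of differentiation 2 and 1162 without its Scl-/- library. Without the WT and the Scl-/- library of differentiation 3 it was 943 and 1577, and without those of differentiation 1 it was 4081 and 2631.

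The shifts chosen in 1 genotype were then read in the other, which shares no library with it. Of 138 genes over 1 (log2) higher in WT differentiation 2 than in WT differentiation 1, 137 were higher in Scl-/- too, with a median difference of 1.34 there, whereas 52.6% of all genes were. Of 88 lower, 79 were lower in Scl-/-. For differentiation 3 minus 1, 208 of 213 genes lower in WT were lower in Scl-/-, while only 10 genes passed 1 in the higher direction, 9 of them higher in Scl-/-. For differentiation 3 minus 2, 136 of 149 higher and 424 of 432 lower had that direction in Scl-/-. Chosen in Scl-/-, 211 genes were over 1 higher in differentiation 3 than 1. Of these, 171 (81.0%) were higher in WT, the lowest share of any set, and their median difference in WT was 0.29. In the other sets chosen in Scl-/-, 92.5% to 100% had the same direction in WT. Genes chosen for a large shift in 1 line tend to show a smaller one in the other, so these medians are no test of a difference between genotypes. Most large shifts had 1 direction in both lines.

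**Figure D1:**
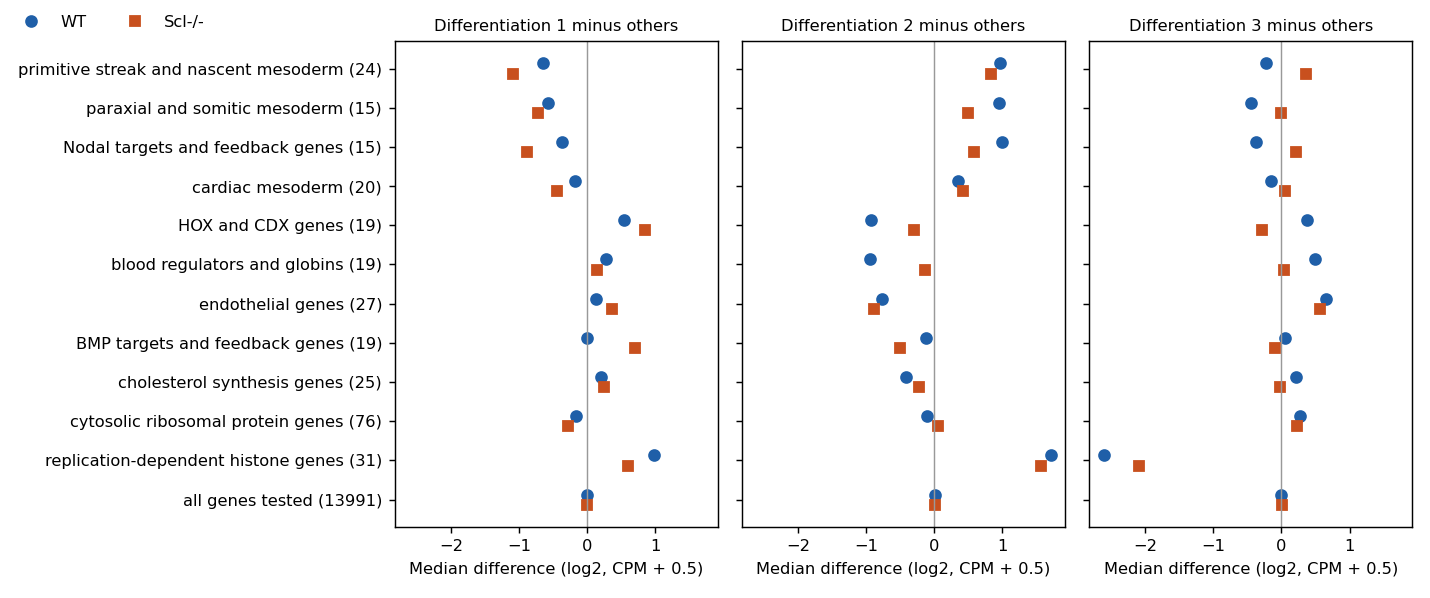
Median difference (log2 of CPM + 0.5) of each differentiation from the mean of the others for 11 gene lists and all genes tested, with the number of genes in brackets, computed in WT (circles) and Scl-/- (squares) apart. Streak, paraxial and Nodal genes lie right of 0 in differentiation 2 and left of 0 in differentiation 1 in both genotypes, endothelial genes lie left of 0 in differentiation 2, and histone genes lie at -2.61 (WT) and -2.09 (Scl-/-) in differentiation 3.

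As a group, genes of the primitive streak and nascent mesoderm were highest in differentiation 2 and lowest in differentiation 1. Of 24 tested, 15 were called higher in differentiation 2 (4.91% of all genes) and 14 lower in differentiation 1 (1.34% of all genes). The medians of the list were 0.82 and -0.83, against 0.01 and 0.00 over all genes. Differentiation 2 was the highest of the 3 in both genotypes for 16 of the 24, against 22.8% of all genes, and differentiation 1 the lowest for 18, against 16.0%. Lefty2 and Lhx1 had the largest shifts of the list. Lefty2, a secreted Nodal inhibitor that Nodal itself induces, was at 2.06, 18.8 and 5.15 CPM in WT and 7.69, 123 and 79.8 CPM in Scl-/-. Within each genotype differentiation 1 was the lowest, and its difference from the others was -2.82 ± 0.35, adjusted p = 0.015, or 7.05-fold lower. Lhx1, a LIM homeobox factor of the streak organiser, was at 28.7, 216 and 36.5 CPM in WT and 83.4, 721 and 339.9 CPM in Scl-/-, and was 5.31-fold higher in differentiation 2 (2.41 ± 0.29, adjusted p = 0.0036). Tdgf1, the Nodal co-receptor Cripto, was at 75.03, 322 and 119.8 CPM in WT and 196, 632 and 447 CPM in Scl-/-, 2.69-fold higher in differentiation 2 (1.42 ± 0.15, adjusted p = 0.0026). In all 3 genes differentiation 3 took a middle place, nearer to differentiation 1 in WT and to differentiation 2 in Scl-/-. The summed level of the undifferentiated-cell markers, most of it Pou5f1, was lowest in differentiation 1 and highest in differentiation 2 as well. Zfp42 among them did not follow this order in either genotype. The part of these markers in the differences was not tested.

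Of the 24 genes, 7 were not called by the F test. T (brachyury), the T-box factor that defines the streak, was at 203, 261 and 217 CPM in WT and 319, 441 and 382 CPM in Scl-/-, and its difference in differentiation 2, 0.33 ± 0.06 (adjusted p = 0.014), was under the limit of 0.48. Evx1, a homeobox gene of the posterior streak, was at 117, 146 and 139 CPM in WT and 199, 242 and 237 CPM in Scl-/- and was not called. Eomes, the T-box factor upstream of Mesp1, was at 154, 363 and 206 CPM in WT and 294, 605 and 558 CPM in Scl-/- and was called higher in differentiation 2 (0.80 ± 0.13, adjusted p = 0.0078) and lower in differentiation 1 (-0.91 ± 0.13, adjusted p = 0.022). Without the WT library of differentiation 2, limma called 0 of the list higher there (15 at an unadjusted p under 0.05 and past the fold limit), and without its Scl-/- library 4. The count lower in differentiation 1 was 0 without either library of differentiation 2 (15 without WT and 16 without Scl-/- at an unadjusted p under 0.05), and 7 without the Scl-/- library of differentiation 1.

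**Figure D2:**
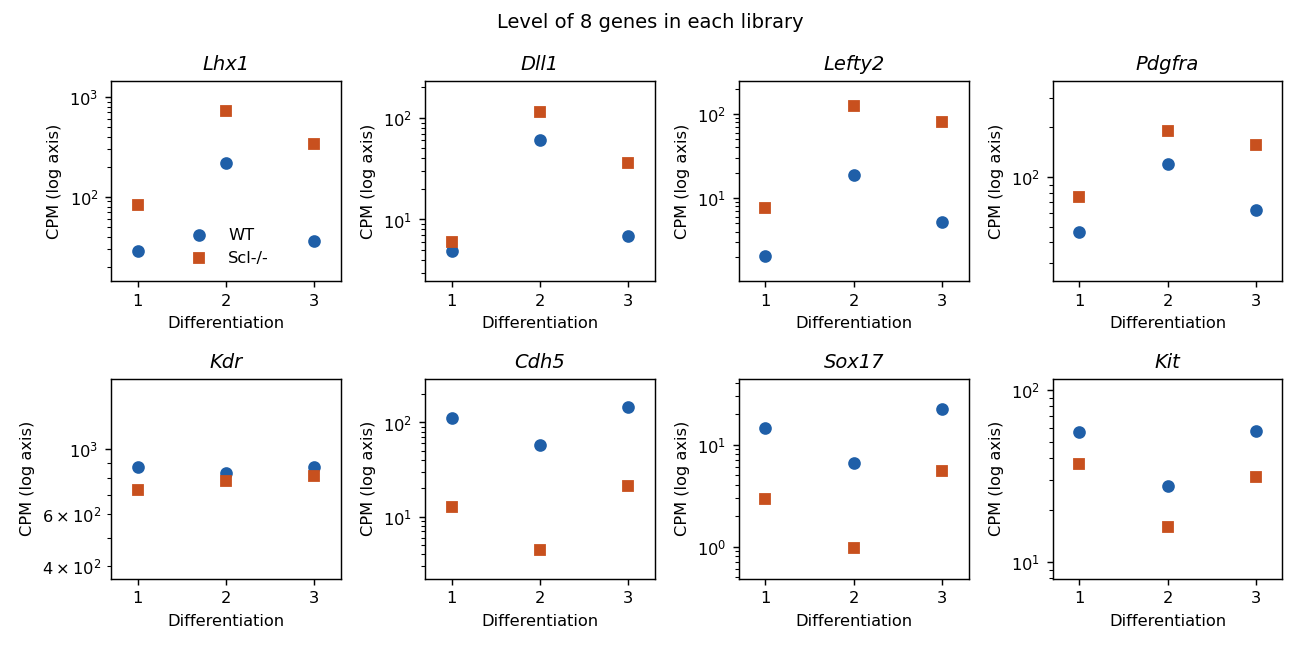
CPM (log axis) of 8 genes in each library, WT as circles and Scl-/- as squares, by differentiation. Lhx1, Dll1, Lefty2 and Pdgfra are highest in differentiation 2 in both genotypes, Cdh5, Sox17 and Kit are lowest there, and Kdr lies between 724 and 868 CPM throughout.

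Paraxial mesoderm genes, which mark the future somites, followed the same order. Of 15 tested, 9 were higher in differentiation 2 (4.91% of all genes) and 6 lower in differentiation 1 (1.34% of all genes). The list median in differentiation 2 was 0.68. Dll1, a Notch ligand of the presomitic mesoderm, was at 4.94, 60.2 and 6.896 CPM in WT and 6.05, 115 and 36.2 CPM in Scl-/-. Both levels of differentiation 2 were above all 4 others, and the difference was 3.08 ± 0.33, adjusted p = 0.0026, or 8.46-fold. A930024N18Rik, a noncoding transcript on chromosome 17 like Dll1, was at 0.803, 12.6 and 1.36 CPM in WT and 1.33, 24.8 and 6.94 CPM in Scl-/-, with both levels of differentiation 2 above the others too (2.92 ± 0.28, adjusted p = 0.0016). Pcdh8, a protocadherin of the paraxial mesoderm, was at 2.73, 14.3 and 5.24 CPM in WT and 4.43, 34.2 and 19.6 CPM in Scl-/- and was 3.91-fold lower in differentiation 1 (-1.97 ± 0.22, adjusted p = 0.015). Tbx6, the paraxial T-box factor, was at 5.07, 12.5 and 5.49 CPM in WT and 7.91, 23.2 and 13.6 CPM in Scl-/- and was called in both differentiations 1 and 2. Msgn1, a target of TBX6, was at 1.98, 3.61 and 2.82 CPM in WT and 3.94, 5.68 and 4.67 CPM in Scl-/- and was not called.

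The list of Nodal targets and feedback genes shares 7 of its 15 tested members with the streak list. It had 7 members higher in differentiation 2 (4.91% of all genes) and 6 lower in differentiation 1 (1.34% of all genes). The list medians were 0.80 and -0.63. The activin antagonist Fst was at 21.7, 69.6 and 20.4 CPM in WT and 46.1, 118 and 67.2 CPM in Scl-/- (1.39 ± 0.16, adjusted p = 0.0034 in differentiation 2). Its level was highest in differentiation 2 in each genotype.

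Among 20 cardiac mesoderm genes, 7 were higher in differentiation 2 (4.91% of all genes) and 7 lower in differentiation 1 (1.34% of all genes). Both sets included Mesp1, Mesp2, Gata6, Actc1, Myl7 and Pdgfra, in comparisons that share all libraries. Mesp1, the first regulator of cardiac mesoderm, was at 30.5, 70.5 and 52.1 CPM in WT and 67.8, 178 and 176 CPM in Scl-/- (-1.18 ± 0.12, adjusted p = 0.015 in differentiation 1). Pdgfra, the receptor that marks paraxial and cardiac mesoderm, was at 46.6, 121 and 63.4 CPM in WT and 75.7, 191 and 156 CPM in Scl-/-, 1.97-fold higher in differentiation 2 (0.98 ± 0.13, adjusted p = 0.0045). Nkx2-5, a later cardiac factor, was lower in differentiation 2, at 3.81, 2.46 and 5.12 CPM in WT and 2.99, 2.08 and 4.63 CPM in Scl-/- (-0.73 ± 0.15, adjusted p = 0.017). Hand1, a bHLH factor of the heart and extraembryonic mesoderm, was at 417, 354 and 487 CPM in WT and 444, 217 and 292 CPM in Scl-/-, also lower in differentiation 2 (-0.54 ± 0.16, adjusted p = 0.047).

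Among 22 pluripotency and epiblast genes, 6 were higher in differentiation 2 (4.91% of all genes) and 4 lower in differentiation 1 (1.34% of all genes). Pou5f1, which encodes OCT4, was at 67.1, 122 and 92.3 CPM in WT and 71.6, 190.3 and 177 CPM in Scl-/-. The epiblast factor Otx2 was at 3.71, 26.9 and 5.15 CPM in WT and 5.96, 46.1 and 27.3 CPM in Scl-/- (2.14 ± 0.31, adjusted p = 0.0058), and its levels in differentiation 2 exceeded those of differentiation 1 in both genotypes. Zfp42, a marker of naive ES cells, was at 6.82, 7.16 and 6.799 CPM in WT and 4.18, 5.92 and 9.73 CPM in Scl-/- and was not called in any comparison.

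Endothelial genes were lower in differentiation 2. Of 27 tested, 19 were called lower there (4.18% of all genes) and 15 higher in differentiation 3 (3.74% of all genes), with medians of -0.84 and 0.58. Differentiation 2 was lowest in both genotypes for 20 of the 27, against 21.3% of all genes, and differentiation 3 was highest for 16, against 26.0%. Cdh5, the adherens junction protein VE-cadherin, was at 111, 57.2 and 146 CPM in WT and 12.7, 4.38 and 21.3 CPM in Scl-/-. Its levels were lowest in differentiation 2 (-1.47 ± 0.15, adjusted p = 0.0021) and highest in differentiation 3 (1.15 ± 0.15, adjusted p = 0.0029) within each genotype. Sox17, a SOX factor of endoderm and arterial endothelium, was at 14.7, 6.53 and 22.05 CPM in WT and 2.95, 0.967 and 5.56 CPM in Scl-/- and was 2.86-fold lower in differentiation 2 (-1.52 ± 0.14, adjusted p = 0.0015). Gja4, a connexin of arterial endothelium and no member of the list, had the largest fall in differentiation 2 among the genes chosen by size, at 11.9, 4.16 and 22.99 CPM in WT and 4.43, 1.11 and 6.101 CPM in Scl-/- (-1.85 ± 0.15, adjusted p = 0.0012, 3.599-fold). Tek, the angiopoietin receptor, was at 37.3, 17.8 and 41.3 CPM in WT and 9.65, 3.07 and 13.4 CPM in Scl-/-, and again lowest in differentiation 2 in each genotype. Its paralogue Tie1 was at 41.9, 22.9 and 71.1 CPM in WT and 4.04, 1.04 and 4.79 CPM in Scl-/-. Sox18, a SOX factor of lymphatic and blood vessels, had 1 of the 5 largest rises in differentiation 3, at 11.6, 9.02 and 23.7 CPM in WT and 7.05, 5.22 and 19.6 CPM in Scl-/- (2.62-fold, 1.39 ± 0.13, adjusted p = 0.0011).

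The 5 endothelial genes not called by the F test were Kdr, Flt1, Icam2, Etv2 and Nrp1. Etv2, the ETS factor at the start of the endothelial course, was at 114, 128 and 138 CPM in WT and 199, 214 and 239.6 CPM in Scl-/-. Flt1, a VEGF receptor, was at 168, 114 and 128 CPM in WT and 81.1, 77.96 and 70.5 CPM in Scl-/-. The count lower in differentiation 2 was 3 and 5 of 27 without its WT and its Scl-/- library, and the count higher in differentiation 3 was 5 and 7 without those of differentiation 3. Tbx4, the T-box factor of the allantois and hindlimb, was named for the size of its fall in differentiation 2 and was at 8.13, 1.202 and 5.61 CPM in WT and 2.398, 0.314 and 1.497 CPM in Scl-/- (-1.83 ± 0.18, adjusted p = 0.0021). Pdgfb, a platelet-derived growth factor gene active in endothelium, was at 36.5, 16.4 and 38.7 CPM in WT and 35.4, 4.83 and 19.3 CPM in Scl-/- (-1.75 ± 0.27, adjusted p = 0.0071). Both levels of differentiation 2 were below the other 4 in each gene. The transcription factor gene Sp6 and the overlapping transcript Gm11532 were the remaining genes chosen by size (-1.501 and -1.52) and may share reads.

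Of 19 blood regulators and globins, 6 were lower in differentiation 2 (4.18% of all genes), with a list median of -0.57. The 6 were Tal1, Lmo2, Gata2, Ikzf1, Kit and Epor. Kit, the stem cell factor receptor, was at 56.97, 27.5 and 57.9 CPM in WT and 36.995, 15.9 and 31.05 CPM in Scl-/- (-1.06 ± 0.09, adjusted p = 0.0012), and both levels of differentiation 2 lay below their counterparts. Lmo2, a partner of SCL, was at 222, 152 and 259 CPM in WT and 168, 102 and 179 CPM in Scl-/- (-0.71 ± 0.07, adjusted p = 0.0015), and Gata2 was at 265, 180.1 and 284 CPM in WT and 71.9, 34.4 and 52.2 CPM in Scl-/-. The median of the list was -0.94 in WT and -0.13 in Scl-/-. Its summed level was 1301, 800 and 1351 CPM in WT and 355, 220 and 328 CPM in Scl-/-, lowest in differentiation 2 in both. Adding 0.5 CPM flattens differences of members at low levels in Scl-/-, such as Gata1, and the difference between genotypes was not tested. Gata1, the erythroid GATA factor, was at 6.75, 3.29 and 10.5 CPM in WT and 0.225, 0.145 and 0.204 CPM in Scl-/- and was not called.

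HOX and CDX genes give mesoderm its position along the body axis. Of 19 tested with their cofactors, 8 were lower in differentiation 2 (4.18% of all genes) and 5 higher in differentiation 1 (1.65% of all genes). The list median in differentiation 2 was -0.67. Hoxb6 was at 11.01, 2.46 and 11.1 CPM in WT and 4.304, 0.508 and 1.79 CPM in Scl-/- (-1.84 ± 0.22, adjusted p = 0.0037 in differentiation 2). Cdx2, which activates posterior HOX genes, was at 43.7, 18.3 and 45.4 CPM in WT and 33.7, 13.6 and 22.1 CPM in Scl-/- (-1.12 ± 0.14, adjusted p = 0.004). Hoxb4, Hoxb5, Hoxb8, Hoxb9, Hoxd8 and Hoxd9 were the other 6 called lower. The first gene of the cluster, Hoxb1, was higher in differentiation 2, at 13.9, 21.5 and 15.3 CPM in WT and 14.9, 29.9995 and 16.96 CPM in Scl-/- (0.72 ± 0.11, adjusted p = 0.0078). The HOX cofactor Meis2 was higher too, at 15.6, 37.4 and 12.1 CPM in WT and 20.5, 55.3 and 25.9 CPM in Scl-/-. The count lower in differentiation 2 fell to 5 with a minimum mean of 2 CPM, limma called 0 without either library of differentiation 2 (5 without WT and 11 without Scl-/- at an unadjusted p under 0.05), and without the WT library of differentiation 3 it called 4.

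Signalling lists showed smaller shifts. Their counts in differentiation 2 stand beside 4.91% of all genes called higher and 4.18% called lower there. Of 19 BMP targets and feedback genes, 5 were lower in differentiation 2, namely Id1, Id3, Smad6, Bambi and Hand1. Id1, an inhibitor of bHLH factors, was at 104, 73.99 and 127 CPM in WT and 112, 71.02 and 112 CPM in Scl-/- (-0.64 ± 0.08, adjusted p = 0.0036). The median of the BMP list in differentiation 1 was 0.70 in Scl-/- and 0.01 in WT. Of 20 FGF and ERK feedback genes, 5 were higher in differentiation 2, and of 20 WNT targets and feedback genes, 3 were higher and 2 lower. The Notch list had 4 of 15 higher in differentiation 2, the ligands Dll1 and Dll3, the glycosyltransferase gene Lfng and the target Hes1. Hey2, a Notch target of arterial endothelium, was lower there, at 15.8, 6.87 and 17.1 CPM in WT and 6.23, 1.81 and 3.83 CPM in Scl-/-. Of 15 retinoic acid genes, the degrading enzymes Cyp26a1 and Cyp26c1 were higher in differentiation 2.

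Of 25 cholesterol synthesis genes, 5 were lower in differentiation 2 (4.18% of all genes). Differentiation 2 was lowest in both genotypes for 20 of the 25, against 21.3% of all genes. Dhcr7, the last enzyme of the pathway, was at 96.5, 63.8 and 111 CPM in WT and 92.7, 61.6 and 87.9 CPM in Scl-/- (-0.62 ± 0.08, adjusted p = 0.0048). Of 31 matrix and adhesion genes, 7 were lower in differentiation 2 (4.18% of all genes), including Col4a5, Col18a1, Lama4, Lama5 and Nid1 of the basement membrane. Myc, a growth regulator counted in the immediate early list, was at 219, 112 and 232 CPM in WT and 192, 93.1 and 163 CPM in Scl-/-, 1.96-fold lower in differentiation 2 (-0.97 ± 0.08, adjusted p = 0.0012).

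Differentiation 1 had the fewest calls of the 3 numbers. Among called genes whose libraries in differentiation 1 both lay beyond the other 4, the 5 largest rises were in Kcnq1, Hist1h2af, Slc10a1, Ahnak and C430049B03Rik. Kcnq1, a potassium channel gene that the antisense transcript Kcnq1ot1 overlaps, was at 31.3, 25.4 and 3.06 CPM in WT and 35.05, 22.9 and 5.78 CPM in Scl-/-, and differentiation 1 lay close to 2 and far from 3 (1.64 ± 0.18, adjusted p = 0.015). Slc10a1, a bile acid transporter gene, was at 7.25, 2.87 and 0.486 CPM in WT and 4.32, 4.04 and 0.635 CPM in Scl-/-, likewise with its lowest levels in differentiation 3. Hist1h2af was at 6.096, 4.89 and 0.267 CPM in WT and 5.45, 4.18 and 0.431 CPM in Scl-/-. C430049B03Rik, a noncoding transcript, was at 46.6, 20.05 and 24.8 CPM in WT and 35.5, 9.02 and 10.999 CPM in Scl-/-, with both levels of differentiation 1 above the 4 others (1.42 ± 0.16, adjusted p = 0.015). Ahnak, a large scaffold protein gene, was at 194, 140.1 and 89.4 CPM in WT and 317, 57.6 and 79.2 CPM in Scl-/- (1.51 ± 0.31, adjusted p = 0.042), and without the Scl-/- library of differentiation 1 its difference was 0.79 (adjusted p = 0.14). Lmo1, a LIM-only factor, had the next largest fall by the same rule after Dll1, A930024N18Rik, Pcdh8 and Mesp2, at 6.57, 17.9 and 13.5 CPM in WT and 10.02, 40.9 and 35.8 CPM in Scl-/- (2.89-fold lower, -1.53 ± 0.16, adjusted p = 0.015). With no intensity trend in the fit, limma called 4 genes higher and 0 lower in differentiation 1 (431 lower at an unadjusted p under 0.05 and past the fold limit). Without the WT library of differentiation 2 it called 0 in either direction (717 higher and 430 lower at an unadjusted p under 0.05), and likewise without its Scl-/- library (469 and 450).

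Differentiation 3 was set apart by the replication-dependent histone genes. These genes make the core and linker histones of S phase, and their mRNAs are known to end in a conserved stem-loop and not in a poly(A) tail. All 31 tested were called lower in differentiation 3 (7.38% of all genes), with a median of -2.39. In all 31 both libraries of differentiation 3 were below the 4 others, against 18.7% of all genes. The filter of 0.5 CPM in at least 3 libraries removes genes under that level in the 4 others. With medians of 0.316 (WT) and 0.431 CPM (Scl-/-) in differentiation 3, many of the 31 passed only through the 4 others. The filter thus favours this direction, and 31 of 31 is in part its result. Their summed level was 183, 310.0 and 20.4 CPM in WT and 136, 258 and 24.7 CPM in Scl-/-. Hist1h1e, a linker histone, was at 25.2, 58.5 and 0.6799 CPM in WT and 18.6, 49.02 and 0.635 CPM in Scl-/-. The levels of differentiation 3 were 29.9-fold below the mean of the others (-4.90 ± 0.12, adjusted p = 3.2e-06), and those of differentiation 2 were the highest. Hist1h1d was at 9.11, 16.5 and 0.291 CPM in WT and 8.28, 14.8 and 0.317 CPM in Scl-/-, and Hist1h1b at 8.13, 16.7 and 0.267 CPM in WT and 5.04, 12.4 and 0.431 CPM in Scl-/-. All 31 were also called higher in differentiation 2 and 13 in differentiation 1, comparisons in which differentiation 3 enters the mean. Even so, the sum in differentiation 2 exceeded that in differentiation 1 in each genotype. Some histone genes are near-identical copies, so their single levels are uncertain. Of 39 cell cycle genes, Plk1 and Aurkb were higher and Mki67 and Cenpe lower in differentiation 3. These counts are near the shares of all genes called there, 3.74% higher and 7.38% lower. Neither Plk1 nor Aurkb was called higher without the GC trend. The call in differentiation 3 held for 28 to 31 of the 31 when any library was left out, and the median was -2.59 after the GC trend was removed.

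**Figure D3:**
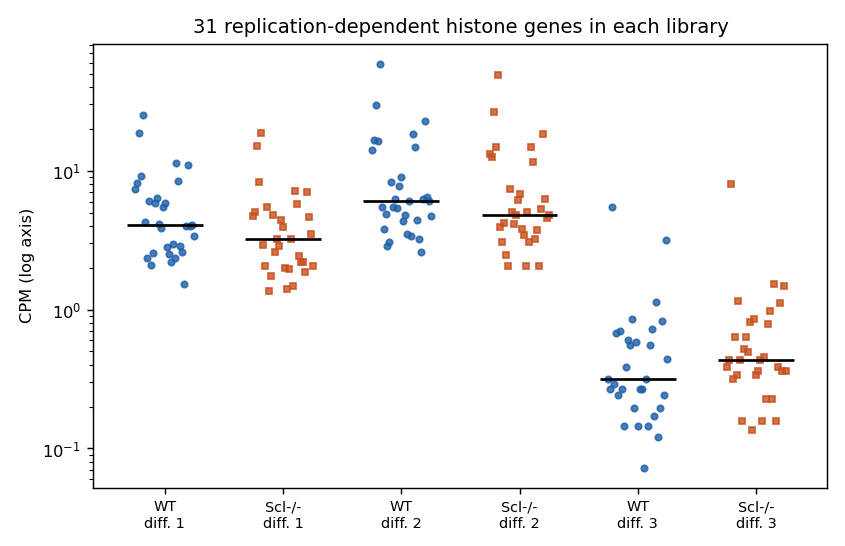
CPM (log axis) of the 31 replication-dependent histone genes in each library, with 1 point per gene, WT as circles and Scl-/- as squares, and a bar at the median. The medians are 4.09 and 3.20 CPM in differentiation 1, 6.06 and 4.81 CPM in differentiation 2, and 0.316 and 0.431 CPM in differentiation 3, WT first.

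A histone stem-loop was found within 200 bases after the coding end in 29 of the 31 genes, at 26 to 58 bases, and in 1 of 12482 other protein-coding genes tested, H2afx, together 0.240% of all protein-coding genes. It was searched in the mm9 sequence on the gene's own strand, and a match is a description of that sequence. The list was chosen as a class of genes known for this element, so these counts describe the list only. The sequences of a linker histone, an H3 and an H4 gene and of H2afx are shown because this element is what most genes of the list share, with the stem-loop in capitals and 5 bases on each side.
Hist1h1e: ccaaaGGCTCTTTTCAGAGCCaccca
Hist1h3e: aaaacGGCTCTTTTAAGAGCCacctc
Hist1h4d: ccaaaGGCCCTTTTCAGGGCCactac
H2afx: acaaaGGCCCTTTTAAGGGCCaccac
In mm9 they lie, in this order, at chr13:23713646-23713671, minus strand, at chr13:23653767-23653792, minus strand, at chr13:23673814-23673839, plus strand, and at chr9:44143318-44143343, plus strand. The 29 genes with the stem-loop differed by -4.90 to -0.89 in differentiation 3, and the 2 list members without a match, Hist2h2bb and Hist1h4j, by -3.25 and -2.01. H2afx, a variant histone gene known to give polyadenylated transcripts as well, was chosen after its values were seen. It was at 155, 179 and 177 CPM in WT and 161, 160.2 and 126 CPM in Scl-/-, with a difference of -0.13 ± 0.10 in differentiation 3 (adjusted p = 0.36). How RNA was selected for the libraries is not given in the sources used here, and its part in these differences was not tested.

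Some noncoding RNAs were also low in the libraries of differentiation 3. Of 17 small nucleolar RNA host and noncoding RNA genes, 6 were lower there (7.38% of all genes) and 1 higher (3.74%). The list median was -0.40, and 5 were lower on values without the GC trend. In differentiation 1, 4 of the 17 were higher (1.65% of all genes). Rn7sk, Rmrp and Scarna2 were chosen after their values were seen. Rn7sk, the 7SK RNA that restrains transcription elongation, was at 25.3, 25.7 and 1.603 CPM in WT and 17.6, 21.8 and 1.36 CPM in Scl-/- (-3.53 ± 0.13, adjusted p = 1.6e-05). Rmrp, the RNA of RNase MRP, was at 9.68, 15.8 and 1.58 CPM in WT and 7.83, 11.3 and 1.63 CPM in Scl-/- (-2.42 ± 0.15, adjusted p = 0.00013). Scarna2, a Cajal body RNA, was at 11.5, 11.2 and 0.753 CPM in WT and 7.69, 7.47 and 0.454 CPM in Scl-/-. All 3 were lower in both libraries of differentiation 3 than in the other 4. Malat1, a nuclear RNA whose end is a triple helix, was at 823, 828 and 161 CPM in WT and 514, 494 and 146 CPM in Scl-/- (-2.07 ± 0.12, adjusted p = 8.7e-05) and shares its locus with the annotated Gm20417. Of 70 snoRNA genes tested, a group also formed after values were seen, 17 were lower in differentiation 3 (7.38% of all genes). Their median was -0.21, and most were not called.

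By size, the largest falls in differentiation 3 besides Hist1h1e and Hist1h1d were in AC115697.1, AY036118 and Gm12913. AC115697.1, annotated as a miRNA gene in mm9 (chr7:137977951-137978037), was at 469, 648 and 8.72 CPM in WT and 363, 554 and 56.5 CPM in Scl-/- (-4.44 ± 0.52, adjusted p = 0.0021). AY036118, annotated as a pseudogene (chr17:39985048-39985772), was at 1411, 1837 and 88.3 CPM in WT and 1092, 1546 and 139 CPM in Scl-/- (-3.70 ± 0.18, adjusted p = 6.2e-05). Gm12913, another pseudogene (chr4:78419581-78420125), was at 2268, 3113 and 149.9 CPM in WT and 1706, 2666 and 232 CPM in Scl-/-. These 3 were among the higher genes of the table in differentiations 1 and 2, and which RNA gave the reads was not tested. Chosen after their values were seen, the protein-coding genes Lars2, Cdk8, Cmss1 and Filip1l were lower in differentiation 3 as well. Lars2, a mitochondrial leucyl-tRNA synthetase, was at 1404, 2153 and 221 CPM in WT and 1461, 1899.9 and 319.8 CPM in Scl-/-. Cmss1 and Filip1l overlap and may share reads. Which RNA gave the reads of these protein-coding genes was not tested either.

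Genes higher in differentiation 3 moved by less. Of 76 cytosolic ribosomal protein genes, 11 were called higher (3.74% of all genes), with a list median of 0.24. In 50 of the 76 both libraries of differentiation 3 were above the 4 others, against 15.1% of all genes. In 46 of the 76 both libraries of differentiation 1 were below the 4 others, against 988 of the 13991 genes tested. The list median in differentiation 1 was -0.23, with 0 of these 76 called lower. The summed level of these genes was 18379, 18847 and 22875 CPM in WT and 17718, 20625 and 23095 CPM in Scl-/-. Of 79 respiratory chain subunit genes encoded in the nucleus, 5 were higher (3.74% of all genes), with a list median of 0.21. Both libraries of differentiation 3 were above the 4 others in 39 of the 79. Those of differentiation 1 were below the 4 others in 27 of the 79, with a list median of -0.17 and 0 called lower. On values without the GC trend, 5 of the 76 ribosomal protein genes and 2 of the 79 respiratory chain genes were called higher. Of 41 imprinted genes, 3 were higher and 5 lower in differentiation 3 (3.74% and 7.38% of all genes). The imprinted noncoding RNA H19 was at 1821, 1043 and 2171 CPM in WT and 1042, 582 and 1357 CPM in Scl-/- (0.73 ± 0.07, adjusted p = 0.0011), highest in differentiation 3 and lowest in differentiation 2 in each genotype. Dlk1 was at 74.9, 36.7 and 89.5 CPM in WT and 21.05, 16.7 and 35.2 CPM in Scl-/- (0.83 ± 0.13, adjusted p = 0.0052). Meg3, from the same imprinted cluster but expressed from the other parental chromosome, was lower in differentiation 3, at 59.7, 71.1 and 27.5 CPM in WT and 533, 445 and 342 CPM in Scl-/-. Dusp2, a phosphatase that inactivates ERK, was at 24.2, 15.1 and 43.4 CPM in WT and 27.6, 20.5 and 51.5 CPM in Scl-/-, with both levels of differentiation 3 above the 4 others (1.13 ± 0.09, adjusted p = 0.00051). The phosphodiesterase gene Pde2a was at 6.02, 6.09 and 9.37 CPM in WT and 3.18, 6.503 and 14.9 CPM in Scl-/-, and without the Scl-/- library of differentiation 3 its difference fell from 1.09 to 0.59 (adjusted p = 0.22). The pseudogenes Gm1821, at 1.104, 1.15 and 9.2999 CPM in WT and 1.35, 1.52 and 3.52 CPM in Scl-/-, and Rps2-ps10, at 1.204, 1.65 and 3.89 CPM in WT and 1.21, 1.38 and 3.697 CPM in Scl-/-, complete the 5 genes chosen by size, and reads of pseudogenes may come from their parent genes. Without the WT library of differentiation 3 the difference of Gm1821 fell from 1.82 to 1.05 (adjusted p = 0.073). The immediate early gene Klf6 was lower in differentiation 3, at 173, 142 and 66.5 CPM in WT and 149, 109 and 64.6 CPM in Scl-/- (-1.10 ± 0.08, adjusted p = 0.00031).

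A part of the differences went with base composition. Genes were divided into 5 equal groups by exonic GC content. In the lowest group (18.1% to 44.3%) the median difference of differentiation 3 was -0.20, with 11 genes called higher and 484 lower, and in the highest (55.7% to 83.1%) it was 0.19, with 262 higher and 92 lower. Differentiation 2 ran the other way, from 0.13 to -0.14. The 2 genotypes gave the same order, with -0.23 and 0.22 in WT and -0.18 and 0.15 in Scl-/- for differentiation 3. Longer genes were also lower in differentiation 3, with a median of -0.14 in the longest of 5 groups by length. With the GC trend removed from each library, the F test called 1978 genes, and differentiation 3 had 285 higher and 677 lower. The streak list then had 16 of 24 higher in differentiation 2 and 14 lower in differentiation 1, and the endothelial list 18 of 27 lower in differentiation 2 and 11 higher in differentiation 3.

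**Figure D4:**
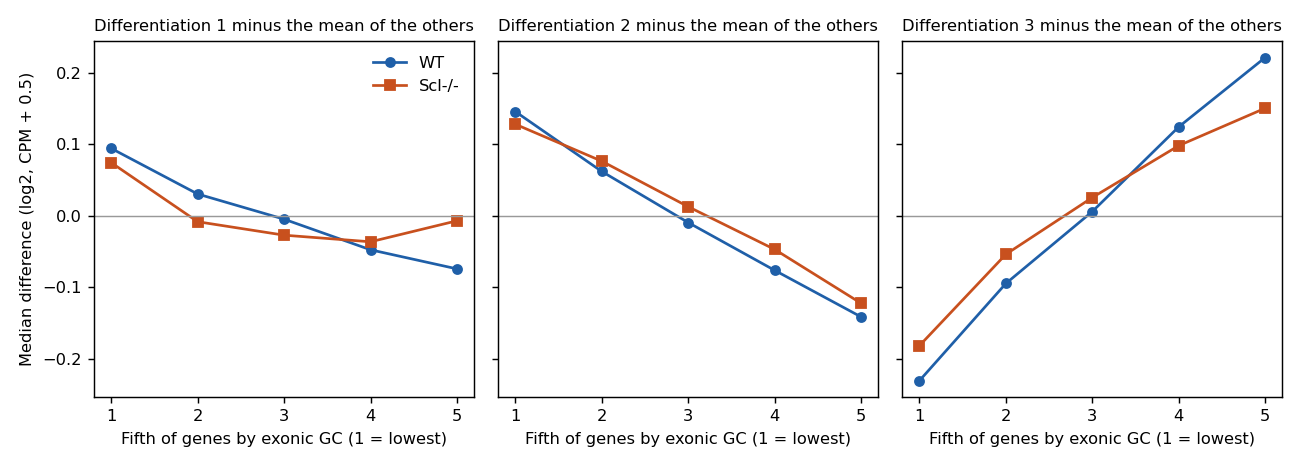
Median difference (log2 of CPM + 0.5) of each differentiation from the mean of the others in 5 equal groups of genes ordered by exonic GC content, in WT (circles) and Scl-/- (squares). The line of differentiation 3 climbs from -0.23 to 0.22 in WT and from -0.18 to 0.15 in Scl-/-, and that of differentiation 2 falls.

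Some genes moved between numbers differently in the genotypes, which these libraries can describe but not test, since each number has 1 library per genotype. Fos and Fosb, immediate early genes that respond within minutes to growth factors, were among them. Fos was at 253, 97.7 and 38.7 CPM in WT and 26.2, 128 and 58.9 CPM in Scl-/-, and Fosb at 158, 46.9 and 16.3 CPM in WT and 7.13, 50.7 and 13.8 CPM in Scl-/-. Fos and Fosb were highest in differentiation 1 in WT and lowest there in Scl-/-, and neither was called by the F test. Igf2, an imprinted growth factor gene, was at 1701, 942 and 1466 CPM in WT and 1196, 106 and 127 CPM in Scl-/-. Cdkn1c, an imprinted cell cycle inhibitor gene, was at 98.1, 92.04 and 98.3 CPM in WT and 92.1, 14.2 and 8.75 CPM in Scl-/-. In both, the Scl-/- libraries of differentiations 2 and 3 were far below the other 4. The antisense gene Igf2os, chosen after its values were seen, overlaps Igf2 and may share its reads, and was at 71.7, 41.8 and 56.6 CPM in WT and 59.3, 6.67 and 5.78 CPM in Scl-/-. Smad6, a BMP-induced inhibitor of the pathway, was at 227, 151 and 199.6 CPM in WT and 219, 81.2 and 126 CPM in Scl-/-, lower in differentiation 2 in both genotypes and by more in Scl-/-.

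The medians of chromosomes 1 and 11 stood apart from those of the other chromosomes in Scl-/- libraries, and the difference between genotypes was not tested. Over the 1211 genes of chromosome 11 the median difference of differentiation 2 minus 1 was 0.24 in Scl-/- and 0.01 in WT, and that of 3 minus 1 was 0.27 and 0.07. In Scl-/- 77.7% of these genes were higher in differentiation 2 than 1, against 49.8% of genes on the chromosomes other than 1 and 11. All 7 windows of 20 Mb along chromosome 11 had a median over 0.1, from 0.20 to 0.41, against 11 of 121 windows elsewhere. Over the 789 genes of chromosome 1, the median of differentiation 3 minus 1 was 0.23 in Scl-/- and -0.00 in WT, and that of 3 minus 2 was 0.22 and 0.04. For 3 minus 1, 8 of its 9 windows were over 0.1, against 0 of 121 elsewhere. A median of 0.24 corresponds to a level 1.18-fold higher. Across the other 18 chromosomes, X included, the medians in Scl-/- lay between -0.06 and 0.06 for 2 minus 1 and between -0.11 and 0.02 for 3 minus 1. Among the called genes described here, Lefty2, Sox17 and Cxcr4 lie on chromosome 1. Lhx1, Myl7, Hoxb1, Tbx4, Sp6, Gm11532, Ikzf1, Hand1, Krt19, the Hoxb4, Hoxb5, Hoxb6, Hoxb8 and Hoxb9 genes, Aldoc and Aurkb lie on chromosome 11. In differentiation 2 Lhx1, Myl7 and Hoxb1 were higher and Tbx4, Sp6, Gm11532, Ikzf1, Hand1, Krt19 and these other Hoxb genes lower, and each had 1 direction from differentiation 1 to 2 in both genotypes.

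**Figure D5:**
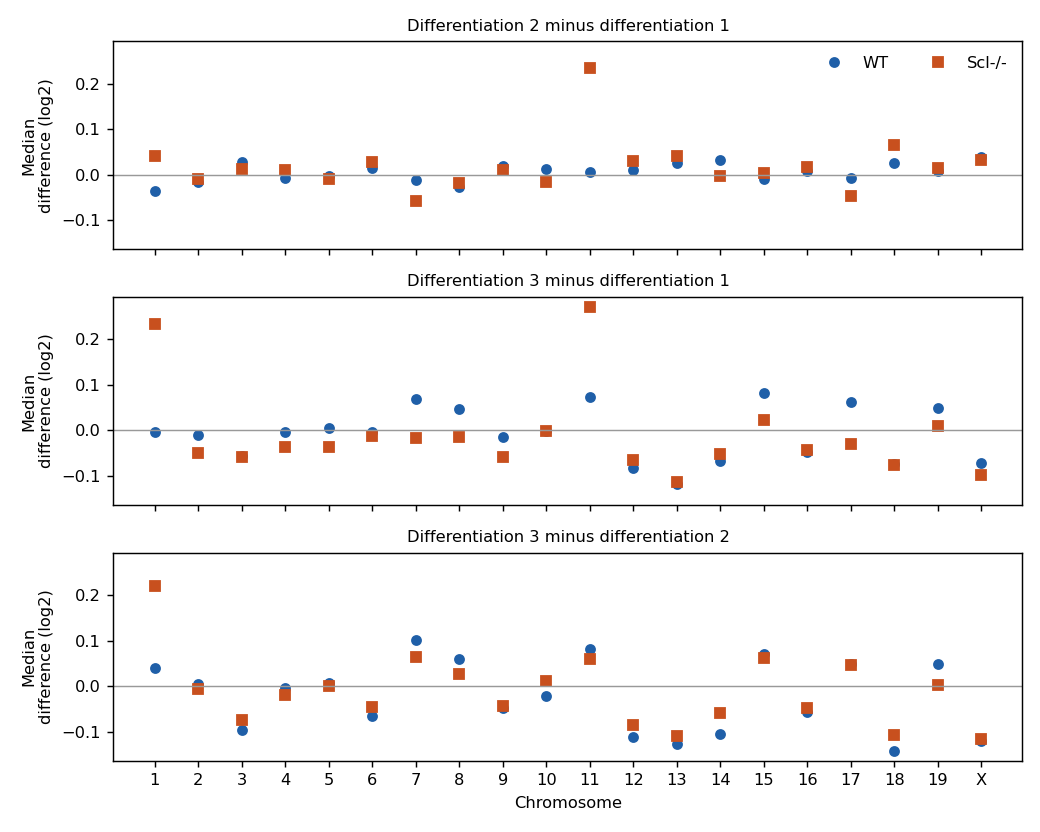
Median difference (log2) over the genes of each chromosome between numbers, in WT (circles) and Scl-/- (squares). In Scl-/- chromosome 11 is at 0.24 in 2 minus 1 and 0.27 in 3 minus 1, and chromosome 1 at 0.23 in 3 minus 1 and 0.22 in 3 minus 2, with the WT points near 0.

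The remaining lists are given by their counts, beside 20.1% of all genes for the F test. Over all genes, 4.91% were higher and 4.18% lower in differentiation 2, and 3.74% higher in differentiation 3. Of 17 p53 targets, 15 interferon-stimulated genes and 19 heat shock and chaperone genes, the F test called 2, 3 and 4. Of 18 sarcomere and smooth muscle genes it called 6, and 2 were higher and 2 lower in differentiation 2. Of 33 hypoxia and glycolysis genes it called 7, of which Hk1, Aldoc and Gapdh were higher in differentiation 3 (1 of the list without the GC trend). Of 27 amino acid and unfolded protein response genes, 3 were higher in differentiation 2, and of 19 oxidative stress and metallothionein genes, 3 were higher in differentiation 3, each count falling to 1 without the GC trend. In the endoderm list, 5 of 12 were lower in differentiation 2, namely Apoe, the keratin genes Krt18 and Krt19, and Sox7 and Sox17, which the endothelial list holds too, and 2 of 12 on values without the GC trend. Cxcr4, a chemokine receptor gene of endoderm and mesoderm, was higher in differentiation 3, at 28.3, 37.9 and 44.3 CPM in WT and 50.01, 81.2 and 96.1 CPM in Scl-/- (0.51 ± 0.09, adjusted p = 0.0063). Of 7 neural and ectodermal genes, Ncam1 was higher and Tubb3 lower in differentiation 2. Among 4 Y-linked genes, Kdm5d was at 0.502, 1.18 and 0.728 CPM in WT and 4.51, 12.9 and 15.5 CPM in Scl-/-, where the Scl-/- library of differentiation 1 was below the others of that line. Eif2s3y was at 20.2, 23.97 and 18.4 CPM in WT and 50.7, 56.8 and 47.4 CPM in Scl-/-, and thus present in all libraries.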

How the data were processed

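Total RNA of FLK1+ cells from day 3.5 embryoid bodies was sequenced in 6 libraries, 1 WT and 1 Scl-/- for each of 3 differentiations, grouped by the replicate number in the labels. The authors aligned reads to mm9 with TopHat 2.0.8b, removed duplicate pairs, kept mapping qualities above 15 with SAMtools 0.1.19 and deposited 1 table of CPM scaled by edgeR's TMM factors for 14005 genes. The counting tool, its strand setting and the library kit are not given in the sources used here. Strand was taken as unknown, so genes that overlap may share reads. Low values are multiples of what 1 read is worth, which gave the depth, but no count test was run. The strain labels of 3 libraries end in running numbers and were not used.

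Genes at 0.5 CPM or more in at least 3 libraries (13991) were fitted on log2(CPM + 0.5) with limma 3.58.1 (R 4.3.3, intensity trend), with a term for differentiation and one for genotype, and the Benjamini-Hochberg correction covered all genes tested. The fit was run on simulated counts with known shifts in differentiation 2. These counts had a single spread and no genotype effect, GC trend or chromosome shift. They therefore do not show how the fit performs on the real spread. Each differentiation was compared with the mean of the others, with a call at an adjusted p under 0.05 and a difference over 0.48. Python 3.11.15, NumPy 2.4.6, pandas 2.3.3 and Matplotlib 3.10.9 were used for summaries. Genes named were the 5 largest differences in each direction among called genes averaging 1 CPM or more, with both libraries beyond the 4 others, list members, Kdr, Tal1, Pdgfra and Y-linked genes. Members and lists were chosen with earlier results of these data known. Gene positions, GC content and stem-loops came from the mm9 genome and GENCODE vM1. Alternatives covered the pseudocount, filter, scaling, trend, genotype term, fold limit, each library left out and, chosen after seeing the data, values without each library's GC trend.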

Additional observations from a re-analysis of the deposited data

Results flagged for a closer look

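Genes that moved by more than 1 (log2) between numbers in opposite directions in the 2 genotypes are given here, each from single libraries, so that the difference between genotypes was not tested. From differentiation 1 to 2, Fos changed by -1.37 in WT and 2.27 in Scl-/-, Fosb by -1.74 and 2.75, and Klf2, a transcription factor gene that responds to flow and stress, by -2.48 and 2.33. From differentiation 1 to 3, Fos changed by -2.69 in WT and 1.15 in Scl-/-. The predicted gene Gm10071 changed by 1.57 in WT and -2.81 in Scl-/- over the same numbers. Fos, Fosb and Klf2 belong to the immediate early list, of which the F test called 7 of 25, against 20.1% of all genes.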

How the results depend on the processing

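Counts of calls stayed within 1.5 times with pseudocounts of 0.1 and 1 CPM, no filter and median-ratio rescaling. With a mean of at least 2 CPM they did so too, except that HOX and CDX genes lower in differentiation 2 went from 8 to 5. Given in the order of the F test, differentiation 1 higher and lower, 2 higher and lower, and 3 higher and lower, the counts were 545, 54, 53, 151, 62, 14 and 163 with a fold limit of 1 (log2). With no fold limit they were 4554, 416, 306, 1510, 1233, 1916 and 2240. With no genotype term limma called 38, 0, 0, 2, 0, 57 and 305, where the counts of 0 had 310, 144 and 353 genes at an unadjusted p under 0.05 and past the fold limit. Leaving out single libraries gave 619 to 4081, 0 to 752, 0 to 684, 11 to 907, 16 to 814, 87 to 718 and 223 to 1159. With no intensity trend differentiation 1 had 4 higher and 0 lower (431 lower at an unadjusted p under 0.05). On values without the GC trend differentiation 3 had 285 higher and 677 lower.

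For endothelial genes a fold limit of 1 left 9 lower in differentiation 2 and 4 higher in differentiation 3. With no genotype term, limma called 0 of the endothelial genes in either (5 and 1 at an unadjusted p under 0.05), 0 streak genes in differentiation 2 and 0 in differentiation 1 (4 and 2), and 0 HOX and CDX genes (1). With no intensity trend it called 0 streak genes lower in differentiation 1 (16). With single libraries left out, endothelial genes ranged from 3 to 20 lower in differentiation 2 and 5 to 17 higher in differentiation 3, streak genes from 0 to 17 in differentiation 2 and 0 to 18 in differentiation 1, HOX and CDX genes from 0 to 11, and histone genes from 28 to 31. A number left with 1 library was assumed to vary like the others, and fewer samples remained in those fits. Apart from these constructions, the cause was not tested. The 30 gene differences chosen by size were required to have both libraries beyond the 4 others. That choice fixed their direction in most alternatives, so the 0 reversals seen are no support. Of the 30, 18 kept their call with no intensity trend and 8 with no genotype term.

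No paired analysis was possible because the shared number is the differentiation itself, the factor compared. With 1 library for each genotype and number, a difference between genotypes in the effect of the number has no error estimate. At 3 reads per library the floor is 0.0615 to 0.0784 CPM, close to the level of several histone genes in differentiation 3, and it covers counting error only.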
